A study of Mus musculus with 3 samples.

Results

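The genes described here are Slc2a1, Hk2, Pfkl, Aldoa, Gapdh, Pgk1, Eno1, Pkm, Ldha and Bnip3, 10 of the 32285 features in the count tables. They were chosen by symbol as glycolysis and hypoxia genes. They take glucose into the cell, carry it through glycolysis to lactate, or, for Bnip3, respond to low oxygen. Every symbol was found, and all 10 were followed through the cell types of mouse liver tumours. Aldoa stands in the tables under 2 identifiers, of which ENSMUSG00000030695, with 59833 UMIs in gated cells, was used and ENSMUSG00000114515, with 5, was not.

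The tumours came from MYC-ON mice of strain C57BL6, 18 weeks old, and live CD45+ cells were sorted from them for droplet 3′ RNA sequencing. The 3 groups were labelled as treated with DU101, treated with DU102, and CONTROL, whose deposited files carry the name DMSO, a common solvent. Each group is 1 library, so a difference between libraries has no replicate check, and treatment cannot be told apart from any other way in which the libraries differ. The sources used here do not give the identity of either compound, the dose, the duration, the number and sex of the animals or the promoter that drives MYC.

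Glycolysis splits glucose into pyruvate in the cytosol and yields ATP without oxygen. Lactate dehydrogenase then turns pyruvate into lactate, which restores the NAD+ that the pathway needs. When oxygen is short, the hypoxia-inducible factor HIF-1 binds DNA at a short core sequence and raises transcription of glucose transporters, of most glycolytic enzymes and of Bnip3, a mitochondrial protein that marks mitochondria for removal by autophagy. MYC binds the related E-box sequence and is known to raise several of the same genes. Neutrophils hold few active mitochondria and depend largely on glycolysis, activated T cells switch to it as they divide, and hepatocytes both make and use glucose.

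The libraries held 15686 (DU101), 13650 (DU102) and 12639 (control) barcodes and between 91013198 and 106604935 UMIs. After filtering, 13885 DU101, 11452 DU102 and 10139 control cells were kept, with median depths of 4838, 5088 and 6336 UMIs. Between 37 and 57 barcodes were shared by any pair of libraries. The control stood apart in sex: 53.1% of its cells had Xist and no Y-linked UMIs, against 0.108% in DU101 and 0.0262% in DU102, so each ratio over the control is also given for the control cells that carried Y-linked and no Xist UMIs where this ends a call. The RNA Gm42418, which overlaps ribosomal RNA, ran over the cell types between 7812 and 42168 CPM in DU101, between 19600 and 60368 in DU102 and between 20219 and 73641 in the control. Scaling without mitochondrial, ribosomal, haemoglobin, Malat1, Lars2 and Gm42418 UMIs moved the log2 ratios between libraries by -0.11 to 0.04.

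Cells were given a type from marker genes that include none of the 10, and 16 types had at least 100 cells in every library. They held 6536 DU101, 5775 DU102 and 5597 control cells. Levels are CPM, the UMIs of a gene in the summed cells of a type in 1 library, scaled to the same total of all UMIs. Blood-like neutrophils of DU101 gave the smallest sum, 386336 UMIs, and dividing NK cells of the control the largest, 5772550. Intervals are 95% and cover counting error only. The hepatic gate ran against the CD45 sort: its cells held Ptprc, the gene of CD45, at 29.9, 23.8 and 17.9 CPM in DU101, DU102 and control, beside Alb at 1337, 1968 and 1140 CPM and Afp at 3333, 3770 and 2588 CPM.

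The start sites of all 10 genes were found in the RefSeq promoter table of build GRCm38.p6, as 16 windows from 250 bases before to 50 bases after a start. Each window was searched for the HIF core, ACGTG or GCGTG, on both strands. The E-box CACGTG holds the core ACGTG on each strand and so counts as 2. Of the 16 windows, 14 held at least 1 core, and 43.8% of all 32851 windows in the table did. Some windows of Eno1 and of Aldoa overlap, so that the same cores count more than once. The windows of the table were not matched to the 16 for base content. The windows of 4 genes are shown as examples: the glucose transporter Slc2a1, Pgk1, called higher in both neutrophil types of both treated libraries, Ldha at the end of the pathway, and the hypoxia gene Bnip3. They include the Ldha and Bnip3 windows that held the most cores of the 16. Capitals mark the cores. The Slc2a1 window lies at chr4:119108495-119108794 on the plus strand and holds 2 cores. The Pgk1 window at chrX:106186850-106187149, plus strand, also holds 2, and 20.6% of all windows hold at least that many. The first of the 2 Ldha windows, at chr7:46845554-46845853, plus strand, holds 7 cores, of which 2 E-boxes give 4. The Bnip3 window at chr7:138909457-138909756, minus strand, holds 5 cores with 1 E-box among them, and at least 5 cores were found in 1.66% of all windows. A match is a match of letters and not a bound site.
Slc2a1: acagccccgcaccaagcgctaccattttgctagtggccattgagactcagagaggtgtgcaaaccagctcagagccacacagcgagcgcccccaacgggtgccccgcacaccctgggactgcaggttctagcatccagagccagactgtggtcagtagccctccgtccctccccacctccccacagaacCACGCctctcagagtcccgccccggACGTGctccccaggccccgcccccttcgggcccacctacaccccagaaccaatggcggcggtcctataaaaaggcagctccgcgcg
Pgk1: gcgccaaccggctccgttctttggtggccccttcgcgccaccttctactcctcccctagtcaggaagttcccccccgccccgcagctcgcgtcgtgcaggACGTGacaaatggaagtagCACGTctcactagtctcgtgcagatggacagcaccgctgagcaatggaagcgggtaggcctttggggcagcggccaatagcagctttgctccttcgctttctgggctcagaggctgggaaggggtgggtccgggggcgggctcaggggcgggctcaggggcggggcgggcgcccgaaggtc
Ldha: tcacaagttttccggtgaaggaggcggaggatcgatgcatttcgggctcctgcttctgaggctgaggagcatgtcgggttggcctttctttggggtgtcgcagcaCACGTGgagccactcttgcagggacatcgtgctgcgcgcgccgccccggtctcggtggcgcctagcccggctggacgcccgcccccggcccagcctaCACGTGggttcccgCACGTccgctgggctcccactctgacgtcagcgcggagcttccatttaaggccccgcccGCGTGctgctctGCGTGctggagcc
Bnip3: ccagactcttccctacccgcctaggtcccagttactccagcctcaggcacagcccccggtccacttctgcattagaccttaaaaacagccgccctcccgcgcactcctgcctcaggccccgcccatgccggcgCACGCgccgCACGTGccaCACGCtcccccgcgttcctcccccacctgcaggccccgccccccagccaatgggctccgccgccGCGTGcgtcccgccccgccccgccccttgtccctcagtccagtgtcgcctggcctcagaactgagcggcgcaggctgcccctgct

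Of the other windows, that of Gapdh held 3 cores, those of Hk2 and of each of the 3 Eno1 starts 2, and that of Pfkl 1. The second Ldha window, at chr7:46846832-46847131, held 2 cores and no E-box. Of the Aldoa starts, 1 window held no core and the others 1 each, and of the Pkm starts, 1 window held none and the other 2. On the same build Slc2a1 spans chr4:119108745-119137330, Hk2 chr6:82725025-82774454, Pfkl chr10:77986947-78009807, Aldoa chr7:126795234-126800994 and Gapdh chr6:125161852-125166467. Pgk1 spans chrX:106187100-106203699, Eno1 chr4:150236708-150248879, Pkm chr9:59656576-59679372, Ldha chr7:46842274-46855627 and Bnip3 chr7:138890836-138909506.

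The 10 genes differed far more between cell types than between libraries. Each type was set against the mean of the other types with edgeR's quasi-likelihood test on UMIs summed by type and library, with the library as a block and Benjamini-Hochberg adjustment over 12432 features. Since the 3 libraries also differ by treatment, the spread against which these p-values judge a type's difference includes how that difference varies between treatments. Of the 160 gene and type pairs, 54 (33.8%) were higher and 61 (38.1%) lower at an adjusted p under 0.05, where 29% and 20.3% of all feature and type pairs were. All 10 genes were higher in inflammatory neutrophils, where 30.2% of all features were higher, and all 10 were lower in plasmacytoid dendritic cells (pDC), where 19.9% of all features were lower.

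**Figure D1:**
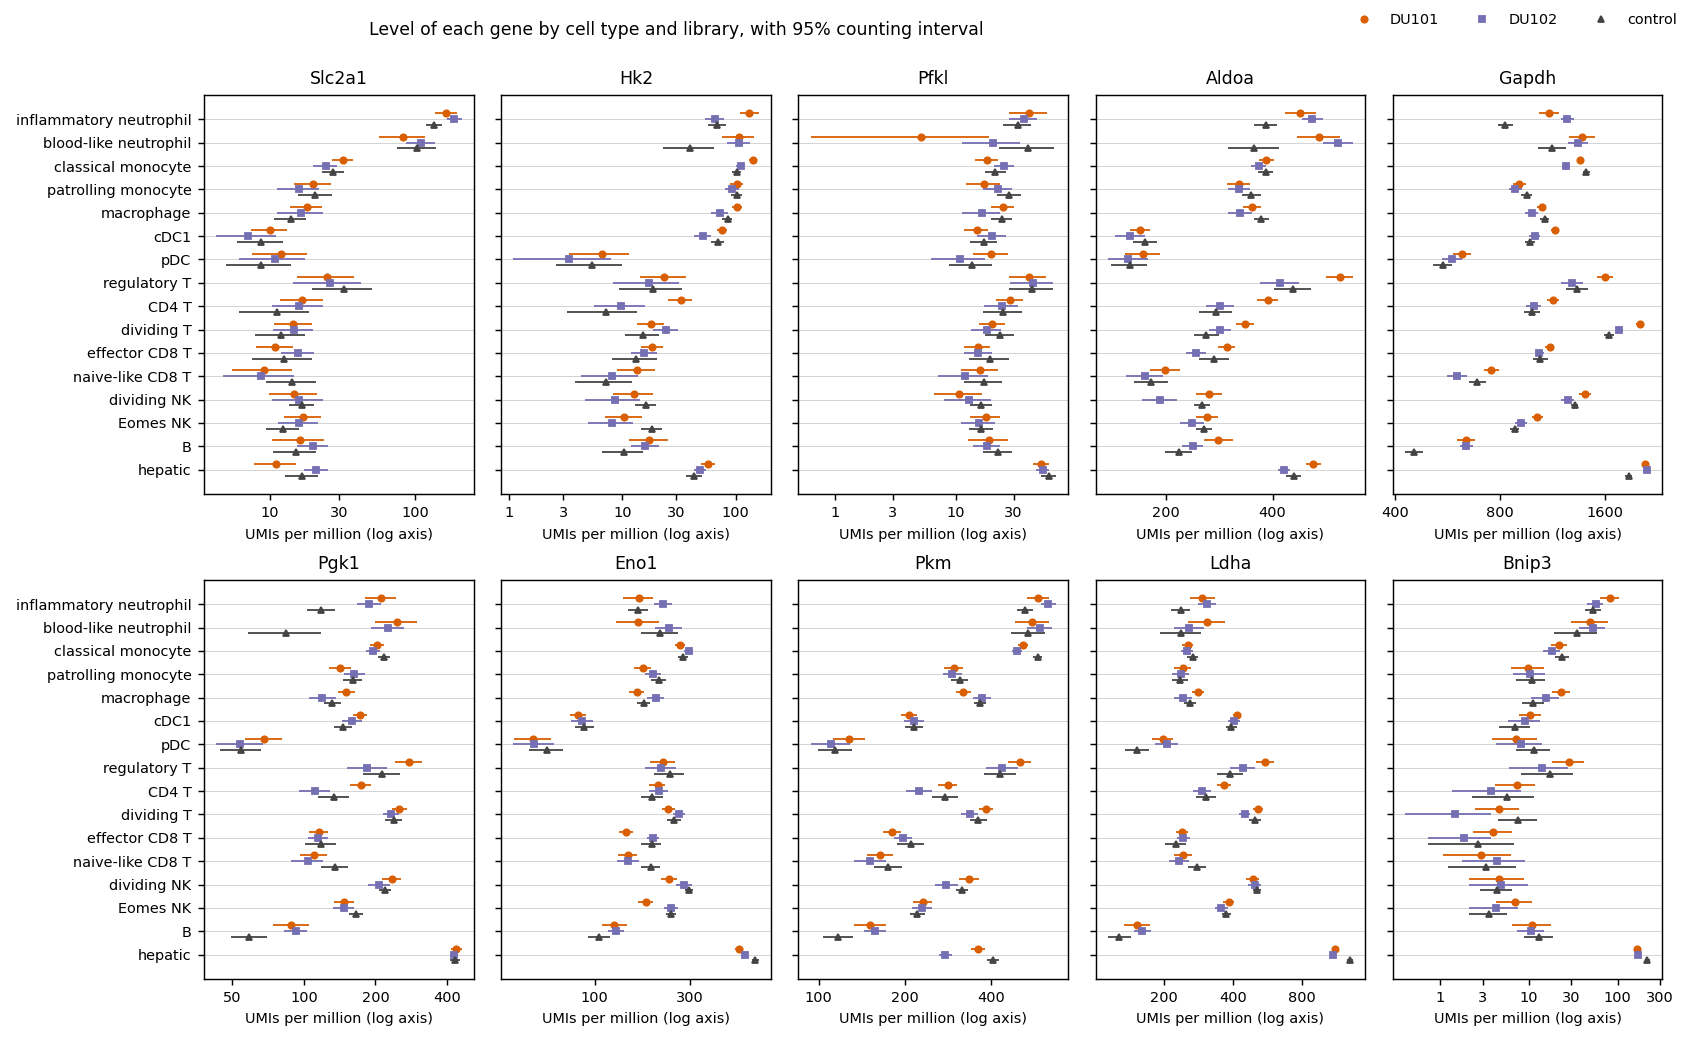
Level of each gene in CPM (UMIs scaled to one total; log axis) in 16 gated cell types. Points are the DU101, DU102 and control libraries and lines are 95% counting intervals; Slc2a1 stands highest in the 2 neutrophil types, between 82.8 and 187 CPM, and Bnip3 in hepatic cells, between 165 and 216 CPM.

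Slc2a1 encodes GLUT1, the transporter that lets glucose into most cells. Inflammatory neutrophils, gated by Ccl3, Ccl4, Cxcl2 and related genes, held it at 164 CPM in DU101, 187 CPM in DU102 and 135 CPM in the control. Blood-like neutrophils, gated by markers that include Retnlg and Mmp8, held 82.8, 110 and 104 CPM in the same order. Both stood above the next type in the order, classical monocytes, at 31.8, 24.3 and 27.4 CPM, and the 3 groups of values do not overlap. Regulatory T cells followed at 24.7 CPM in DU101, 25.9 in DU102 and 32.5 in the control, a range that overlaps that of classical monocytes. The lowest levels were in conventional type 1 dendritic cells (cDC1), with 9.96, 7.11 and 8.69 CPM. Against the mean of the other types the log2 fold change was 3.77 (SE 0.11) in inflammatory neutrophils and 2.80 (SE 0.17) in blood-like neutrophils, with edgeR quasi-likelihood adjusted p of 9.41e-33 and 2.31e-19. Classical monocytes were the only other type where Slc2a1 was higher (0.49, adjusted p = 0.000813, same edgeR test), and in 10 types it was lower.

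Hk2, the inducible hexokinase that traps glucose as glucose 6-phosphate, split the types into myeloid and lymphoid ones. Classical monocytes held 141, 111 and 102 CPM in DU101, DU102 and control, patrolling monocytes 102, 93.2 and 102 CPM, and macrophages 102, 72.4 and 84.7 CPM. In cDC1 the levels were 76.4, 51.3 and 69.5 CPM, while pDC held only 6.55, 3.37 and 5.42 CPM. No lymphoid type held more than 32.6 CPM in any library, and hepatic cells stood above them at 57.5, 48.3 and 43.1 CPM. Every one of the 16 types differed from the mean of the others in edgeR's quasi-likelihood test at an adjusted p under 0.05, 7 of them higher. The largest differences were in inflammatory neutrophils (2.17, SE 0.18, adjusted p = 5.58e-15), classical monocytes (2.1, SE 0.13, 1.46e-18) and, downwards, pDC (-2.81, SE 0.32, 3.12e-10). Set directly against pDC, cDC1 were higher by 3.90 on the log2 scale (SE 0.34, edgeR adjusted p = 1.49e-13).

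Pfkl, the liver-type subunit of phosphofructokinase, which commits sugar to glycolysis, was highest in hepatic cells at 50.6, 52.1 and 58.7 CPM in DU101, DU102 and control. Regulatory T cells came next with 40.0, 43.2 and 42.7 CPM and inflammatory neutrophils after them with 40.1, 36.4 and 32.3 CPM. These were the 3 types in which it was higher than in the others (log2 1.06, 0.74 and 1.32, edgeR adjusted p = 1.32e-11, 0.00232 and 8.84e-10). In blood-like neutrophils the counts were few, at 2, 14 and 16 UMIs, or 5.18 CPM in DU101, 20.3 in DU102 and 39.6 in the control. Aldoa, the aldolase that splits the sugar, had the narrowest order: the highest type mean was 3.10 times the lowest, and all 15 pairs of neighbouring types overlapped. Its mean was highest in blood-like neutrophils, at 541, 613 and 354 CPM. The levels were 480, 518 and 382 CPM in inflammatory neutrophils, 620, 420 and 457 CPM in regulatory T cells and 172, 157 and 158 CPM in pDC.

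Gapdh and Pgk1 carry out the steps that make NADH and the first ATP of the pathway. Hepatic cells led both, with Gapdh at 2085, 2118 and 1871 CPM and Pgk1 at 438, 428 and 432 CPM in DU101, DU102 and control. Dividing T cells, gated by Mki67, Top2a, Birc5 and Cdk1 beside T cell genes, came second for both, with Gapdh at 2012, 1755 and 1643 CPM and Pgk1 at 252, 233 and 239 CPM. At the other end, B cells held Gapdh at 639, 640 and 454 CPM and pDC at 622, 582 and 548 CPM, ranges that overlap. For Pgk1 the lowest type was pDC at 67.7, 54.0 and 54.2 CPM.

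Eno1 and Pkm, enolase and pyruvate kinase, complete the way to pyruvate. Eno1 was highest in hepatic cells, at 530, 569 and 639 CPM in DU101, DU102 and control, above the 268 to 297 CPM of classical monocytes. It was lowest in both dendritic types, with 82.6, 86.8 and 88.9 CPM in cDC1 and 49.1, 49.9 and 57.5 CPM in pDC. Reads of Eno1 can be shared with its near copy Eno1b, to which 999 UMIs were assigned in gated cells, against 42712 for Eno1. Pkm ran in another order: inflammatory neutrophils held 582, 632 and 526 CPM, blood-like neutrophils 554, 590 and 538 CPM and classical monocytes 515, 492 and 581 CPM, ranges that overlap. In hepatic cells Pkm did not pass the edgeR test in either direction (log2 -0.05, adjusted p = 0.628), although 8 of the 10 genes were higher there, where 41.5% of all features were higher. Without scaling factors that contrast moved by 0.34 on the log2 scale and 9 genes were higher, all but Slc2a1.

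Ldha, the dehydrogenase that makes lactate, was highest in hepatic cells at 1117, 1086 and 1295 CPM in DU101, DU102 and control. Dividing NK cells followed at 487, 496 and 508 CPM and B cells were lowest at 152, 161 and 128 CPM. The log2 fold change of hepatic cells was 1.66 (SE 0.07, edgeR adjusted p = 1.29e-26). Bnip3 had the widest order of the 10, with a highest type mean 65.5 times the lowest. Hepatic cells held 165, 170 and 216 CPM, inflammatory neutrophils 81.4, 56.1 and 53.2 CPM and blood-like neutrophils 49.2, 52.3 and 34.7 CPM, while effector CD8 T cells held 3.96, 1.82 and 2.63 CPM. Hepatic RNA at the level of the hepatic markers in those T cells would give 0.838, 1.11 and 1.19 CPM of Bnip3, and the 65.5-fold range was computed without removing it. The log2 fold change was 3.87 (SE 0.10, edgeR adjusted p = 1.07e-33) in hepatic cells and 3.08 (SE 0.16, 3.92e-22) in inflammatory neutrophils.

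**Figure D2:**
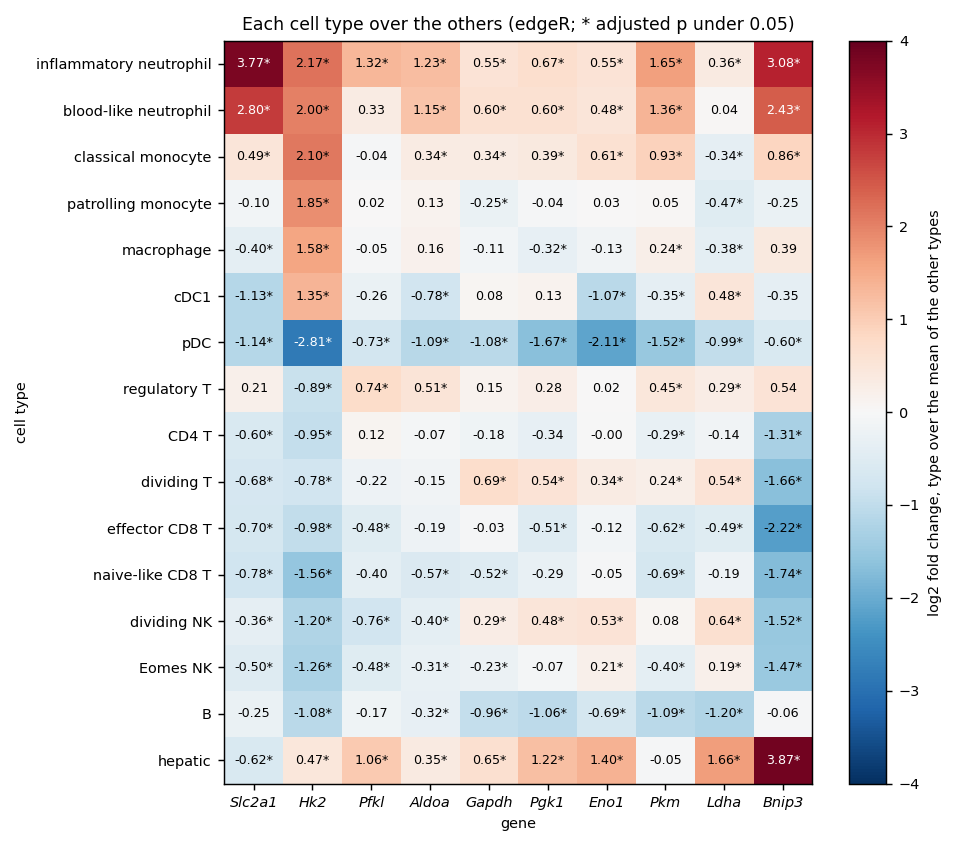
Log2 fold change of each gene (columns) in each cell type over the mean of the others (rows), from edgeR with TMM scaling over 3 libraries; a star marks an adjusted p under 0.05. The inflammatory neutrophil row is positive and the pDC row negative throughout; without scaling factors Gapdh, Eno1 and Ldha turn negative in inflammatory neutrophils (-0.02, -0.03 and -0.21).

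Scaling set part of the neutrophil result. S100a8 and S100a9 alone made up 143907, 158810 and 82833 CPM of inflammatory neutrophils in DU101, DU102 and control, and TMM factors raise the other genes of such a type. Without scaling factors the whole contrast moved by -0.57 on the log2 scale, 6 of the 10 genes stayed higher in the edgeR test, Pgk1 no longer passed (0.11), Gapdh and Eno1 stood at -0.02 and -0.03, and Ldha was lower (-0.21). Slc2a1, Hk2, Pfkl, Aldoa, Pkm and Bnip3 are the 6. In blood-like neutrophils the contrast moved by -0.33 and 6 genes were higher in place of 8, beside 21.8% of all features with TMM, and Ldha was lower. Leaving out DU102 also gave 6, with Eno1 (0.25) and Pgk1 (0.22) outside the threshold. In pDC, 9 of 10 remained lower without factors, and also without DU101 or without DU102, each time with Bnip3 outside the threshold (-0.46, -0.35 and -0.63).

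Hepatic RNA outside hepatic cells can be read from the 8 hepatic marker genes. Their sum in the immune types was between 0.25% and 3.42% of its level in hepatic cells. At that share Bnip3 from hepatic RNA would stand at 3.58, 5.09 and 7.40 CPM in patrolling monocytes of DU101, DU102 and control, where 9.77, 10.3 and 10.7 CPM were measured. For macrophages it would be 3.73, 4.09 and 6.17 CPM, beside a measured 23.0, 15.4 and 11.1 CPM. For inflammatory neutrophils it would be 1.84 CPM in DU101 and 2.2 CPM in DU102, far below the measured values.

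Pairs of related types were compared in the same edgeR fit. Dividing T cells held more Gapdh than the non-dividing T cell types (log2 0.79, SE 0.09, adjusted p = 1.45e-09), and Pgk1 (0.71, 4.19e-05), Ldha (0.63, 4.06e-08), Pkm (0.50, 3.58e-05) and Eno1 (0.35, 0.00313) were also higher. These 5 of 10, where 18.3% of all features were higher, are the members that act after aldolase. Slc2a1, Hk2, Pfkl, Aldoa and Bnip3 lay between -0.45 and 0.29 and did not pass. Each of the 5 passed without any 1 of the libraries. Dividing NK cells were higher than Eomes NK cells for Pgk1 (0.52), Gapdh (0.49), Pkm (0.45) and Ldha (0.42), with edgeR adjusted p between 0.00299 and 0.0351, where 11% of all features were higher, but none of these 4 passed without the DU101 library (0.37 to 0.47), nor Pgk1 without DU102 (0.54) or Pkm without the control (0.42).

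Regulatory T cells, gated by Foxp3, were higher than other CD4 T cells for Pkm (log2 0.69, SE 0.13, edgeR adjusted p = 0.000184), Bnip3 (1.74, SE 0.40, 0.00264), Aldoa (0.54, 0.0211) and Ldha (0.40, 0.0227), against 3.77% of all features. Bnip3 stood at 28.2, 13.8 and 17.1 CPM in regulatory T cells of DU101, DU102 and control, from 24, 8 and 10 UMIs. In CD4 T cells it stood at 7.25, 3.68 and 5.57 CPM, from 16, 6 and 7 UMIs, and the ranges do not overlap. The counting intervals of the types do overlap in DU102 (5.96 to 27.2 and 1.35 to 8.01) and in the control (8.2 to 31.4 and 2.24 to 11.5), but not in DU101. Without the DU101 library only Pkm of the 4 passed, with Bnip3 at 1.61, Aldoa at 0.49 and Ldha at 0.32. Ldha did not pass without DU102 (0.41), nor Aldoa without the control (0.54). Classical monocytes were higher than patrolling monocytes for Bnip3 (1.04), Pkm (0.83), Slc2a1 (0.56), Gapdh (0.55) and Eno1 (0.54), with edgeR adjusted p between 3.32e-07 and 0.0207, where 16.3% of features were higher. Slc2a1 did not pass there without DU101 (0.51). Inflammatory neutrophils were higher than blood-like ones for Slc2a1 (0.91, SE 0.18, edgeR adjusted p = 0.000338) and Pfkl (0.93, 0.031), against 8.84% of features, and Pfkl failed without DU101 (0.52), without DU102 (0.96) and without scaling factors (0.71). Effector CD8 T cells, gated by Gzmb, Gzmk, Ccl5 and Nkg7, passed against naive-like CD8 T cells for Gapdh alone (0.45, edgeR adjusted p = 0.00716, background 9%). That call was lost without DU101 (0.47) or without DU102 (0.36). Aldoa did not pass, though effector cells held 297, 243 and 273 CPM in DU101, DU102 and control, against 199, 174 and 182 CPM. Without scaling factors this contrast moved by 0.19 on the log2 scale.

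**Figure D3:**
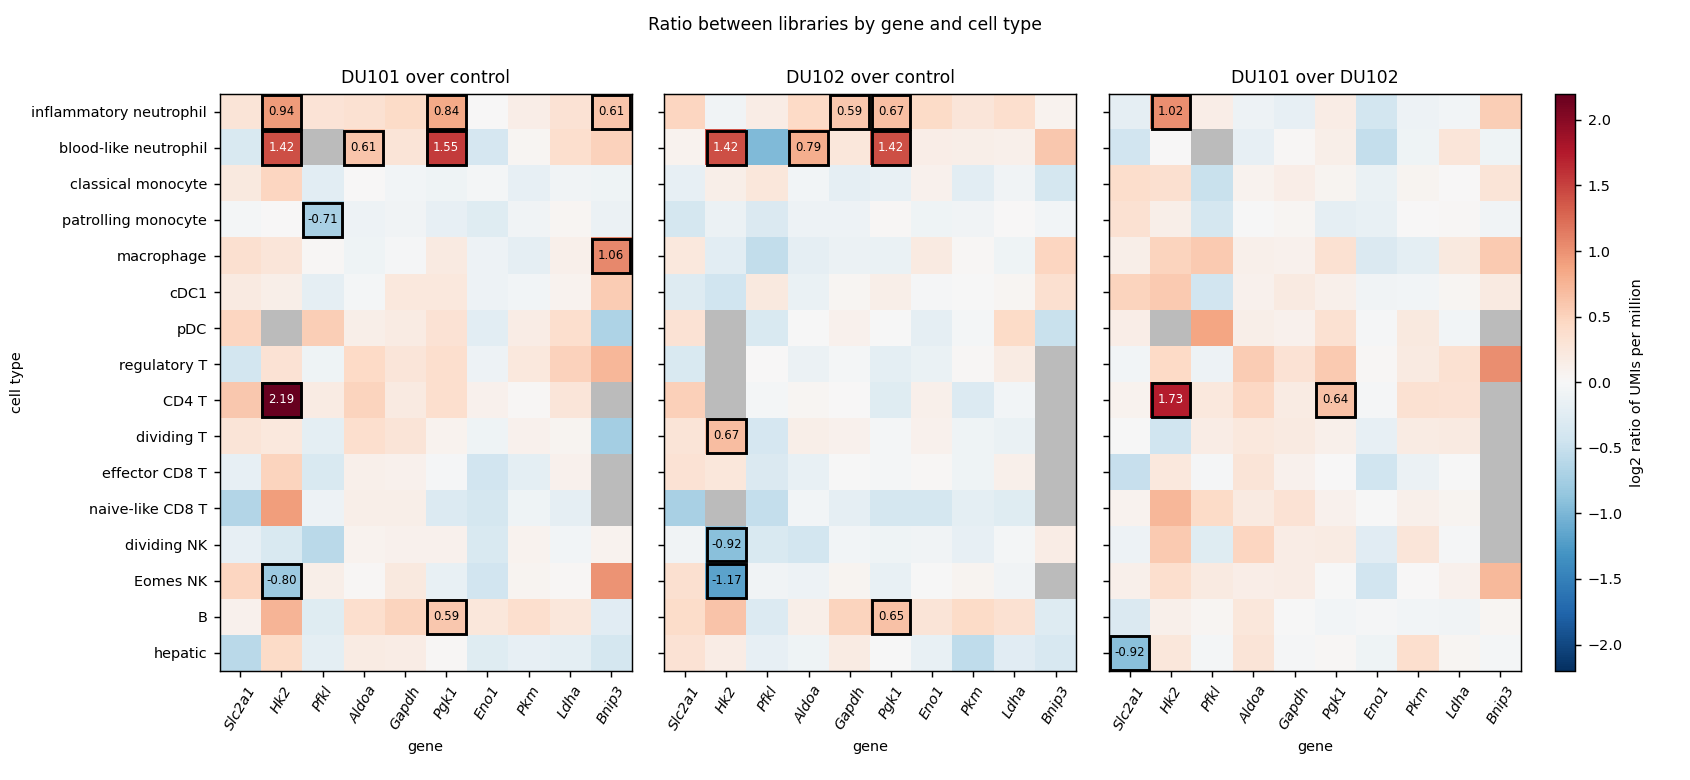
Log2 ratio of CPM between libraries for each gene (columns) and cell type (rows). Boxed numbers passed the size rule and grey cells had under 30 UMIs over both libraries; boxes for both treated libraries fall on Hk2, Aldoa and Pgk1 in blood-like neutrophils, Pgk1 in inflammatory neutrophils and B cells, and Hk2 in Eomes NK cells.

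Between libraries no test was possible, so a size rule was used. A pair of gene and type was called where its ratio reached 1.5-fold either way, its counting interval excluded 1, and both libraries together held at least 30 UMIs. In DU101 over control 155 of the 160 pairs had enough UMIs, and 9 were called higher (5.81%) and 2 lower (1.29%), where 3.97% and 6.03% of all feature and type pairs were. In DU102 over control 150 pairs did, with 7 called higher (4.67%) and 2 lower (1.33%), against 4.24% and 3.61%. Both ratios rest on the same control library. Against the control cells with Y-linked and no Xist UMIs, 20 pairs were called higher and 7 lower in DU101, and 12 higher and 6 lower in DU102. Those control cells number from 10 in regulatory T cells to 170 in inflammatory neutrophils. Scaling without mitochondrial, ribosomal, haemoglobin, Malat1, Lars2 and Gm42418 UMIs gave 6 and 2 in DU101 over control and 5 and 2 in DU102 over control. The shares of all pairs called under these settings are not given here, so these counts have no background beside them.

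Neutrophils held 6 of the 9 higher calls of DU101 and 5 of the 7 of DU102. In inflammatory neutrophils 3 of 10 genes were called higher in DU101, where 5.21% of all features were, and 2 of 10 in DU102, against 6.22%. All 10 ratios of DU101 were above 1, with a median log2 ratio of 0.32 beside -0.07 over all features, and 9 of 10 of DU102 were, with 0.39 beside -0.13. Pgk1 stood at 211 CPM in DU101 and 188 CPM in DU102, against 118 CPM in the control, ratios of 1.78 (1.45 to 2.19) and 1.59 (1.33 to 1.90). Hk2 was high in DU101 only, at 132 CPM, with 65.3 CPM in DU102 and 69.1 CPM in the control, so that the ratio of DU101 over control was 1.92 (1.47 to 2.5). Bnip3 was likewise highest in DU101, at 81.4, 56.1 and 53.2 CPM (1.53, 1.10 to 2.11, in DU101 over control), a call kept in 8 of 11 alternative settings. Gapdh, at 1106 CPM in DU101, 1248 in DU102 and 828 in the control, was called in DU102 alone (1.51, 1.41 to 1.61), a ratio close to the limit that was called in 6 of 11 alternative settings and ran from 1.29 to 1.64 over them. TMM scaling between libraries would add 0.12 to each log2 ratio of DU102 over control in this type and 0.19 in blood-like neutrophils.

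In blood-like neutrophils 3 of 9 genes with enough UMIs were called higher in DU101, where 10.1% of features were, and 3 of 10 in DU102, against 6.23%. The 3 were the same for both: Pgk1, Hk2 and Aldoa. Pfkl went the other way: its DU101 ratio was 0.131 (0.0146 to 0.555), from 2 UMIs against 16, under the minimum for a call. Its DU102 ratio was 0.513 (0.232 to 1.12) and was not called. Pgk1 stood at 246 CPM in DU101 and 225 CPM in DU102, against 84.3 CPM in the control, ratios of 2.92 (1.95 to 4.45) and 2.67 (1.83 to 4.0). Hk2 stood at 106 CPM in both treated libraries, from 41 UMIs in DU101 and 73 in DU102, against 39.6 CPM from 16 UMIs in the control, and both ratios were 2.68 (1.47 to 5.11 and 1.54 to 4.92). Aldoa was at 541 and 613 CPM in DU101 and DU102, against 354 CPM, ratios of 1.53 (1.23 to 1.90) and 1.73 (1.43 to 2.11), called in 8 and 10 of the 11 alternative settings. The control held 139 such cells, against 187 in DU101 and 231 in DU102. Pgk1 and Hk2 of blood-like neutrophils were called in both treated libraries under all 11 alternative settings, and against the 44 control cells with Y-linked and no Xist UMIs the Pgk1 ratios were 2.62 (1.49 to 4.98) for DU101 and 2.4 (1.39 to 4.5) for DU102. S100a8 and S100a9 together also differed between the libraries, at 232601 and 245175 CPM in DU101 and DU102 against 180100 CPM in the control, and their part in these ratios was not tested. Immature neutrophils, gated by Ltf, Camp and related genes, numbered 580 cells in DU101 and 717 in DU102, against 88 in the control. They held Pgk1 at 216, 203 and 189 CPM and Hk2 at 129, 99.7 and 72.8 CPM in the same order. Blood-like neutrophils could carry some of these markers, and the part of maturity in these ratios was not tested.

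**Figure D4:**
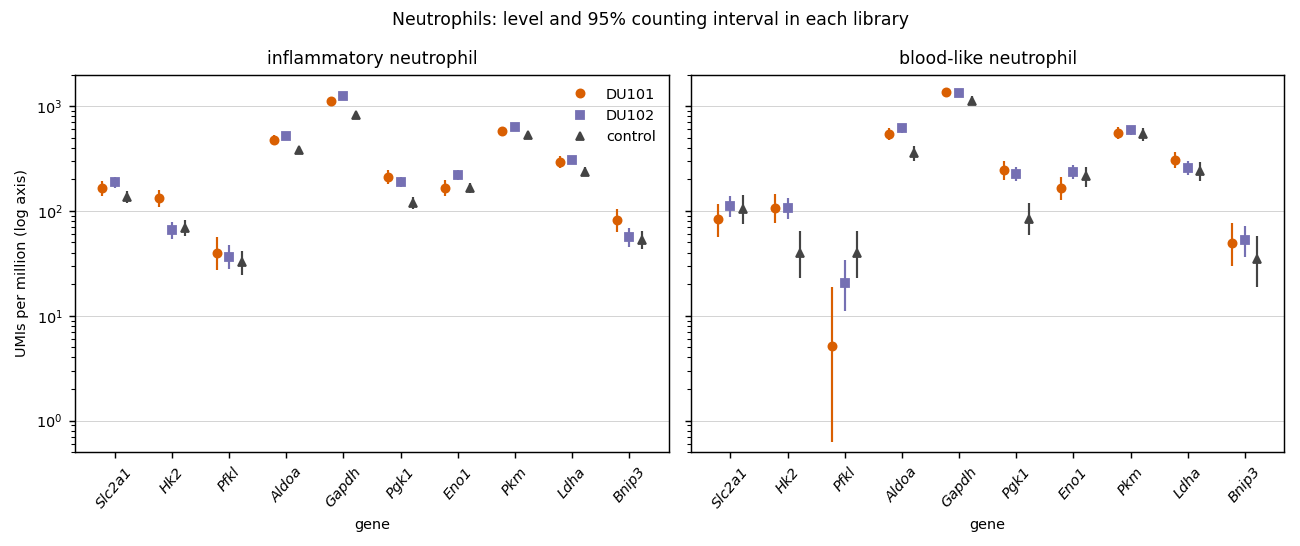
Level of each gene in CPM (UMIs scaled to one total; log axis) in inflammatory and blood-like neutrophils, with 95% counting intervals, for DU101, DU102 and control. Pgk1 lies at 246 and 225 CPM in blood-like neutrophils of DU101 and DU102, above the 84.3 CPM of the control, while Pkm lies between 538 and 590 CPM there in all 3.

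Outside neutrophils, Pgk1 of B cells was at 88.6 CPM in DU101 and 92.3 CPM in DU102, against 58.9 CPM in the control. The ratios of 1.5 (1.18 to 1.92) and 1.57 (1.28 to 1.93) lay close to the limit, and they were called in 5 and 8 of the 11 alternative settings. With cells weighted alike, Pgk1 of B cells stood at 73.2, 71.7 and 59.2 CPM in DU101, DU102 and control. The ratios were then 1.24 and 1.21, the lowest over the settings. In B cells the ratios of 8 of 10 genes were above 1 in each treated library, with median log2 ratios of 0.31 for DU101 and 0.37 for DU102 beside -0.05 and 0.04 over all features. Among the 16 types of the control, B cells held the lowest Gapdh, at 454 CPM, and the lowest Ldha, at 128 CPM.

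Hk2 was called in opposite directions in T and NK cells. CD4 T cells held 32.6 CPM in DU101, 9.81 CPM in DU102 and 7.16 CPM in the control, from 72, 16 and 9 UMIs, and the ratio of DU101 over control was 4.55 (2.27 to 10.4). Eomes NK cells held 10.4 and 8.09 CPM in DU101 and DU102, against 18.2 CPM in the control, ratios of 0.573 (0.366 to 0.873) and 0.444 (0.263 to 0.719). Dividing NK cells of DU102 were at 8.53 CPM, against 16.1 CPM in the control (0.530, 0.279 to 0.934), and dividing T cells of DU102 at 24.1 CPM, against 15.1 CPM (1.59, 1.04 to 2.49). None of these 5 calls held against the control cells with Y-linked and no Xist UMIs, which number 28 in CD4 T, 89 in Eomes NK, 44 in dividing NK and 24 in dividing T cells. The ratios were then 5.62 (0.977 to 225) for CD4 T cells of DU101, 0.877 and 0.680 for Eomes NK cells of DU101 and DU102, 1.04 for dividing NK cells and 2.62 for dividing T cells of DU102.

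The other calls of DU101 over control were in mononuclear phagocytes. Bnip3 of macrophages was at 23.0 CPM in DU101 and 15.4 CPM in DU102, against 11.1 CPM in the control, a ratio of 2.08 (1.44 to 3.02) for DU101. Pfkl of patrolling monocytes was at 17.0 and 22.2 CPM in DU101 and DU102, against 27.7 CPM, a ratio of 0.613 (0.408 to 0.908) for DU101. Neither was called against the control cells with Y-linked and no Xist UMIs, with ratios of 1.68 (0.945 to 3.21) and 0.773 (0.369 to 1.81). In hepatic cells none of the 10 was called in either treated library over control, where 2.78% and 4.75% of features were called higher and 13.8% and 7.8% lower. Hepatic Pgk1 was at 438 CPM in DU101 and 428 CPM in DU102, against 432 CPM in the control.

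DU101 and DU102 were also set against each other, which does not use the control. Of 152 pairs with enough UMIs, 3 were called higher in DU101 (1.97%) and 1 lower (0.658%), where 3.36% and 6.43% of all pairs were. The higher calls numbered 11 with cells weighted alike, 9 with TMM factors, 7 at a mitochondrial limit of 5% and 5 with 4 markers. The shares of all pairs called under these settings are not given here. TMM factors moved every log2 ratio of a type together, by between -0.18 in blood-like neutrophils and 0.15 in cDC1. Hk2 was 2.03 times as high in DU101 as in DU102 (1.54 to 2.67) in inflammatory neutrophils and 3.32 times (1.91 to 6.12) in CD4 T cells, and both calls held under all 10 alternative settings. Its ratio was above 1 in 14 of the 15 types with enough UMIs. Pgk1 of CD4 T cells stood at 173 CPM in DU101, against 111 CPM in DU102 (1.56, 1.31 to 1.88). Slc2a1 of hepatic cells stood at 11.1 CPM in DU101, against 20.9 CPM in DU102 (0.530, 0.356 to 0.773). Hepatic cells also held the neutrophil markers S100a8 and S100a9, together at 2065 CPM in DU101 and 3694 CPM in DU102. The part of neutrophil RNA in this Slc2a1 ratio was not tested. Eno1 had no call, and its ratio of DU101 over DU102 was above 1 in 1 of 16 types. Its median log2 ratio was -0.16, beside -0.06 over all features. The types all come from the same pair of libraries, so counts of types above 1 are not separate observations.

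Other genes of the pathway were read from lists of 19 genes of glycolysis and lactate export, 28 of the hypoxia response, of which 27 are among the features, and 4 regulators. In DU101 over control the glycolysis list gave 14 higher and 15 lower calls in 176 pairs (7.95% and 8.52%), beside the 3.97% and 6.03% of all pairs. In DU102 over control it gave 15 higher and 6 lower in 175 (8.57% and 3.43%), beside 4.24% and 3.61%, and in DU101 over DU102 it gave 4 and 16 in 185 (2.16% and 8.65%), beside 3.36% and 6.43%. The hypoxia list gave 28 higher and 11 lower calls in 295 pairs in DU101 over control (9.49% and 3.73%), and 18 higher and 28 lower in 291 pairs in DU102 over control (6.19% and 9.62%), beside the same shares of all pairs. In DU101 over DU102 it gave 40 higher and 9 lower in 299 pairs (13.4% and 3.01%), beside 3.36% and 6.43%, with a median log2 ratio of 0.08 beside -0.06 over all features. Few genes gave most of these 40 calls: P4ha1 gave 11, Hilpda 9, Plin2 7 and Bhlhe40 5. Hif1a, Arnt, Vhl, Egln1, Egln2, Bnip3l, Ero1l and Fam162a had no call in either direction there. Ddit4, Kdm3a and Hif1an were called lower only, in 2 types each. The regulators Myc, Mlxipl, Txnip and Tigar gave 1 higher and 6 lower calls in 39 pairs in DU101 over control (2.56% and 15.4%), 0 and 7 in DU102 over control (0% and 17.9%), and 4 and 0 in DU101 over DU102 (10.3% and 0%). The list genes named next were picked by their number of calls in 1 direction, and their calls in the other direction are given with them.

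P4ha1, a prolyl hydroxylase of collagen synthesis that hypoxia induces, was called higher in DU101 than in DU102 in 11 of 15 types, among them B cells at 28.9 CPM, against 8.15 CPM. It was also called lower in DU102 than in the control in 7 of 15 types. Hilpda, a lipid droplet protein induced by hypoxia, was called higher in DU101 than in DU102 in 9 types and lower in 1, and macrophages held it at 109 CPM in DU101, 63.2 CPM in DU102 and 39.7 CPM in the control. Plin2, which coats lipid droplets, was called higher in 7 of 16 types, with inflammatory neutrophils at 478 CPM in DU101, against 246 CPM in DU102. Called lower in DU101 than in DU102 were Pdk1, the kinase that restrains pyruvate dehydrogenase, in 4 of 14 types, the hexokinase Hk1 in 3, with 1 type higher, and the lactate transporter Slc16a1 in 3. Hk1 of Eomes NK cells was at 19.1 CPM in DU101, against 39.7 CPM in DU102.

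Mxi1, a MYC antagonist that hypoxia induces, was called higher in DU101 than in the control in 7 of 14 types and lower in 1, and in DU102 higher in 4 of 13 and lower in 2. Inflammatory neutrophils held it at 83.8 and 93.7 CPM in DU101 and DU102, against 48.2 CPM in the control. Hilpda was called higher in DU101 than in the control in 5 types and lower in 1, and Bhlhe40, a transcriptional repressor, higher in 3 and lower in 1. Pdk1 was called lower in 4, Txnip, which limits glucose uptake, in 3 and Hk1 in 2, with 1 type higher for Hk1. In DU102 over control Hk3, the hexokinase of myeloid cells, was called higher in 3 of 6 types, and Ndrg1, a hypoxia-induced gene, higher in 3 of 10 and lower in 2. Myc was called lower in 5 of 13 types and Plin2 in 4 of 16, with 1 type higher for Plin2. Myc of B cells stood at 52.5 CPM in DU102, against 106 CPM in the control.

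The 10 genes fell into groups by how their levels ran over the 48 sums of 16 types and 3 libraries, as Pearson r on log2(CPM + 10). Gapdh and Pgk1 were the most alike (0.905), followed by Pgk1 and Ldha (0.857), Aldoa and Pkm (0.827), Gapdh and Ldha (0.809), and Pgk1 and Eno1 (0.804). Slc2a1 and Hk2 ran apart from Ldha (-0.0911 and 0.0714). These correlations are descriptions without a test, since sums of 1 library share its depth and the 3 sums of a type share its cells' identity. With the 10 themselves left out, among 5701 other features with at least 50 CPM in a type, the gene most like Gapdh, Pgk1 and Eno1 was Tpi1, the enzyme of the step between Aldoa and Gapdh (0.857, 0.909 and 0.826). Next after Tpi1 among these features came Prelid1 for Gapdh (0.825), Pgam1, the mutase after Pgk1, for Pgk1 (0.746), and Actn4 for Eno1 (0.765). Among the same features, Ldha was nearest to Fam162a, a hypoxia-induced mitochondrial protein (0.88), and Mdh2 (0.832). Slc2a1 was nearest to the interleukin-1 decoy receptor Il1r2 (0.957) and to Hdc (0.951), a marker of the neutrophil gate, Hk2 to Ralb (0.955) and Ifitm2 (0.904), and Pkm to Nfil3 (0.828) and Glrx (0.820). Outside the 10, Aldoa was nearest to Mxi1 (0.792) and Slmap (0.785), Pfkl to Galm (0.764) and Psen2 (0.703), and Bnip3 to Dgat2 (0.862) and Tst (0.861).

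**Figure D5:**
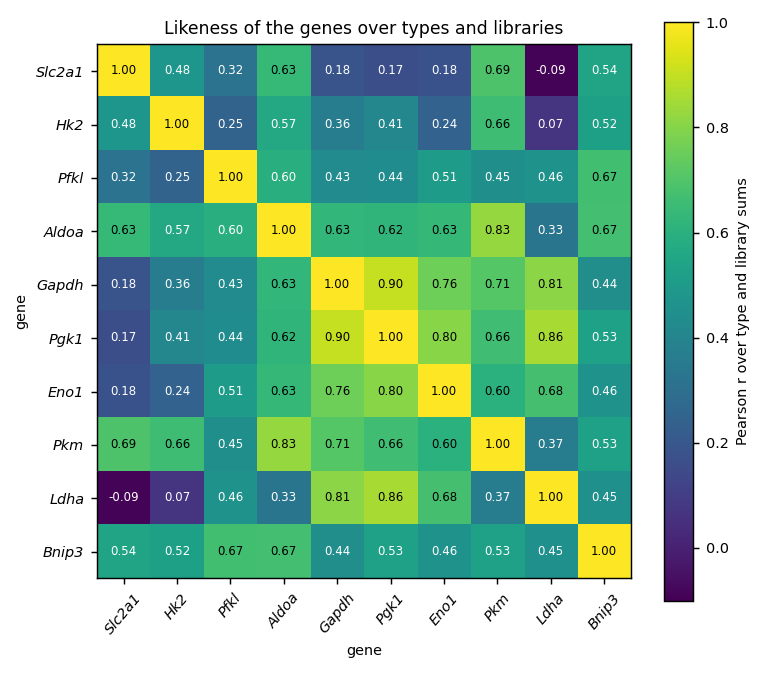
Pearson r between the 10 genes over 48 sums of cell type and library, on log2(CPM + 10). Gapdh, Pgk1, Eno1 and Ldha form a block of high values, up to 0.905 for Gapdh and Pgk1, and Slc2a1 and Ldha give the lowest, -0.0911.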

How the data were processed

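Live CD45+ cells of MYC-ON liver tumours were measured in 3 droplet libraries, 1 each for DU101, DU102 and control. Raw UMI counts of 32285 features were deposited by the authors as 1 matrix per library. Per the file headers they come from Cell Ranger 6.0.0. The submitters' processing notes, in contrast, list version 2.1.1 and the build mm10. Neither the annotation release nor the use of strand in counting is stated in the sources used here. Deposited tables of cluster fold changes were not used.

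Cells were kept if they had 200 or more genes and no more than 10% mitochondrial UMIs. Doublets called by Scrublet (scanpy 1.11.5) were removed. A cell took a type with at least 3 markers above their mean rate and a share of markers at least 2 times that of any other list, which left 70.3, 71.2 and 72.1% of DU101, DU102 and control cells typed. UMIs were summed by library and type. Cells are not replicates. Cell types were compared with edgeR 4.0.16 (R 4.3.3; TMM, filterByExpr, quasi-likelihood test, Benjamini-Hochberg), tested on simulated data first. Libraries were compared by CPM ratio with an exact interval of a pair of Poisson counts. Other tools were pandas 2.3.3, scipy 1.17.1 and numpy 2.4.6 in Python 3.11.15, with matplotlib 3.10.9 for figures.

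The members and lists were chosen with earlier results of these data known. The gate's scoring rule, the pairs of related types and the fit without scaling factors were chosen after seeing the data. Named were all 10 members, the 2 other features most like each by Pearson r, members left out, and the 3 list genes with the most types called in each direction of a comparison. Settings tried were mitochondrial limits of 5 and 20%, at least 500 genes, doublets kept, 4 markers, cells weighted alike, TMM between libraries, a 2-fold limit, no minimum count, other scaling totals, control cells of 1 sex, DESeq2 1.42.0, no low-count filter and each library left out. A single library per group leaves no pairing to check between groups.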

Additional observations from a re-analysis of the deposited data

Results flagged for a closer look

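Hk2 was picked out because its ratio over control was called higher in some cell types and lower in others. In DU101 the log2 ratio over control was 0.94 in inflammatory neutrophils, 1.42 in blood-like neutrophils and 2.19 in CD4 T cells, but -0.80 in Eomes NK cells. In DU102 it was 1.42 in blood-like neutrophils and 0.67 in dividing T cells, but -0.92 in dividing NK cells and -1.17 in Eomes NK cells. The difference between the types was not tested, since each group is 1 library, and both treated libraries were set against the same control. Against control cells with Y-linked and no Xist UMIs, the blood-like and inflammatory neutrophil calls held, with ratios of 2.64 (1.11 to 7.61) for DU101 and 2.64 (1.16 to 7.43) for DU102 in blood-like neutrophils and 1.96 (1.35 to 2.92) for DU101 in inflammatory neutrophils. The T and NK cell calls did not.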

How the results depend on the processing

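Counts of gene and type pairs called higher and lower against control cells with Y-linked and no Xist UMIs were 20 and 7 for DU101 and 12 and 6 for DU102, in place of 9 and 2 and of 7 and 2. With cells weighted alike 5 pairs were lower in DU101 and 4 in DU102 over control, and 11 were higher in DU101 over DU102 in place of 3. A limit of 2-fold left 4 higher and 0 lower in DU101 over control, 2 and 1 in DU102 over control, and 0 lower in DU101 over DU102. That last comparison gave 7 higher with a mitochondrial limit of 5%, 5 with 4 markers, and 9 higher and 2 lower with TMM factors. The shares of all pairs called under these settings are not given here, and the cause was not tested. Hk2 of dividing NK cells, DU102 over control, turned to a log2 ratio of 0.062 against the control cells with Y-linked UMIs.

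Between cell types, 54 pairs were higher and 61 lower, and these counts stayed within 1.5 times under each alternative: 55 and 63 without scaling factors, 49 to 50 and 52 to 59 without 1 library, and 52 and 54 with no replicate block. Without scaling factors Eno1, Gapdh and Ldha of inflammatory neutrophils stood at -0.026, -0.016 and -0.21, and Ldha of neutrophils over the other immune types at -0.12. That setting moved regulatory T cells by 0.27 over the other types and by 0.12 over CD4 T cells. No paired analysis was possible between treated and control because each group is 1 library. Depth limited Bnip3 most, which reached 30 UMIs over both libraries in 13 of 16 types for DU101 over control and in 10 of 16 for the other comparisons.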

Other observations

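Several types fell short of 100 cells in a library and entered no comparison. Immature neutrophils, gated by Ltf, Camp, Ngp, Lcn2 and Chil3, held Slc2a1 at 19.0, 22.5 and 27.6 CPM in DU101, DU102 and control and Bnip3 at 8.93, 7.78 and 7.72 CPM, below both of the other neutrophil types in every library. Their Hk2 stood at 129, 99.7 and 72.8 CPM and their Pkm at 459, 502 and 521 CPM. Myeloid precursors held Gapdh at 2090, 1899 and 2218 CPM and Eno1 at 353, 459 and 452 CPM, above every immune type compared in the report. Kupffer cells held Hk2 at 182 CPM in DU101, 40.5 CPM in DU102 and 39.7 CPM in the control, from 42, 30 and 91 cells, and at 41.3, 24.1 and 46.6 CPM with cells weighted alike. Basophils or mast cells held Hk2 at 121, 102 and 240 CPM (123, 129 and 438 CPM with cells weighted alike) and Ldha at 552, 509 and 673 CPM, with Eno1 at 65.8, 67.8 and 62.5 CPM. Endothelial cells held Bnip3 at 29.6, 25.3 and 22.8 CPM and Pfkl at 43.9, 37.9 and 47.7 CPM. Migratory dendritic cells held Ldha at 67.9, 59.8 and 64.4 CPM and Eno1 at 40.9, 42.7 and 56.1 CPM.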
